A study of Mus musculus with 10 samples.

Results

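The receptors of dopamine and noradrenaline were followed across the cells of the mouse medial prefrontal cortex and between 2 social ranks. The 10 genes were the dopamine receptors Drd1, Drd2, Drd4 and Drd5, the alpha-1 adrenergic receptors Adra1a, Adra1b and Adra1d, the alpha-2 receptors Adra2a and Adra2c, and the beta receptor Adrb1. They were chosen by symbol, and each symbol is found in all 10 deposited gene lists, so 10 of the 30406 genes that the lists share are described. Single cells of male C57BL/6N mice over 2 months old were profiled by droplet RNA sequencing, with 5 libraries from mice at rank 1 (dominant) and 5 from mice at rank 4 (subordinate) in the tube test, a contest in which 2 mice meet in a narrow tube. No transgene or drug is labelled for either group. Each library pooled 2 to 3 mice, and prefrontal punches taken 1 day after tube testing ended were dissociated with papain at 37 °C for 60 minutes. The labels do not say which mice went into which library, so p-values measure the spread between libraries.

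Dopamine and noradrenaline reach the prefrontal cortex from midbrain and brainstem neurons and act there on G protein-coupled receptors. Drd1 and Drd5 couple to Gs and raise cyclic AMP, while Drd2 and Drd4 couple to Gi and lower it. Among the noradrenaline receptors, the alpha-1 group couples to Gq and calcium release, the alpha-2 group to Gi, and Adrb1 to Gs. In this cortex both transmitters are known for their part in working memory and arousal. A receptor's transcript is often rare in a neuron, so droplet counts of these genes are sparse.

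Of 64937 deposited barcodes, 45864 cells were kept, among them 16456 excitatory neurons, 2254 inhibitory neurons, 9017 astrocytes, 3614 microglia and 3214 oligodendrocyte precursors. The cells were clustered without the 10 receptor genes, and each cell name used here means a cluster that is like that type by its marker genes. Library totals ran from 4442750 to 29278466 unique molecular identifiers (UMIs, each standing for 1 captured RNA molecule). The matrix headers name software version 3.1.0 for replicates 1 to 3 of both ranks and 4.0.0 for replicates 4 and 5. The lowest UMI count of a deposited barcode was 1033 in rank 4 replicate 1, 737 in rank 1 replicate 1 and 494 to 501 in the other libraries. At most 104 barcodes were shared by any pair of libraries, 1.70% of the smaller one. No cluster was named L6b or striatal, and the striatal genes Six3 and Isl1 had 21 and 18 UMIs in all kept cells. A level below is in CPM, the UMIs of a gene relative to all UMIs of the cell group in a library, averaged over the libraries with at least 20 cells of the group, with the SD over libraries. Since 3′ counts of different genes are not on one scale, levels are compared within a gene only. A share of cells with a UMI is the mean of the libraries' own shares, each library weighted equally, and the share over all cells of the group is named as pooled where given. The tests between cell groups take each library as a unit. With the libraries of a replicate number averaged, a choice made after seeing the data, the 29 differences that passed have 4 or 5 units, at which the smallest possible exact permutation p is 0.125 or 0.0625, so none can pass. All 11 with 4 units and 16 of the 18 with 5 units had one sign in every number. The exceptions, each with 4 of 5 numbers, were Adra1b in astrocytes against excitatory neurons and Adra2c in excitatory against inhibitory neurons.

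On GRCm38 (GENCODE annotation) Drd1 lies at chr13:54051183-54055705 and Drd2 at chr9:49340627-49408177. Drd4 lies at chr7:141292006-141296464 and Drd5 at chr5:38319367-38322518, overlapped on the other strand by Gm26560. Adra1a lies at chr14:66635251-66771168, Adra1b at chr11:43774606-43901210 and Adra1d at chr2:131545850-131562283, where it overlaps Gm14285. Adra2a lies at chr19:54044151-54048982, Adra2c at chr5:35278319-35281763 and Adrb1 at chr19:56722199-56733113. How the authors' counting treats reads of overlapping genes is not given in the sources used here, so Drd5 and Adra1d counts are uncertain in that respect.

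The start regions of 4 of the genes are shown because most of the differences between cell groups described below concern them. They come from RefSeq on GRCm38.p6, lie before the annotated gene, and are written 5′ to 3′ on the gene's strand. Capitals mark the GC box GGGCGG and TGACG, the short form of the cyclic AMP response element, on either strand.

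Drd1, chr13:54055706-54055908, minus strand: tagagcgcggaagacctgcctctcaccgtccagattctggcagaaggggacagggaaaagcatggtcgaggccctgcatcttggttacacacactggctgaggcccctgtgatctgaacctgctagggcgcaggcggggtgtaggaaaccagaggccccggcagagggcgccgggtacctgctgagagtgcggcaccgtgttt
Drd5, chr5:38319259-38319366, plus strand: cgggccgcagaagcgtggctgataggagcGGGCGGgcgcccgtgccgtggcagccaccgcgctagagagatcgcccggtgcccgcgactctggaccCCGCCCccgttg
Adra1b, chr11:43901238-43901487, minus strand: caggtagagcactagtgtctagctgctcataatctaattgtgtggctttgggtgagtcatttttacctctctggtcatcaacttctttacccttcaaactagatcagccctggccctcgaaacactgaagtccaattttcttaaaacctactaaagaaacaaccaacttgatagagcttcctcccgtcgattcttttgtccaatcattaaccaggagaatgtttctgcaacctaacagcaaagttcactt
Adrb1, chr19:56721867-56722116, plus strand: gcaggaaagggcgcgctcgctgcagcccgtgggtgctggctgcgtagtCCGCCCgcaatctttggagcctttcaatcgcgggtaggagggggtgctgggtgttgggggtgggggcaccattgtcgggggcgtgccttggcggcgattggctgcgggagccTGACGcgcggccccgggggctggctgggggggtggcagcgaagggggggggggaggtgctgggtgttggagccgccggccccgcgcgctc

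The Drd5 stretch holds 2 GC boxes, the Adrb1 stretch holds 1 GC box and 1 TGACG, and the Drd1 and Adra1b stretches hold neither. Drd1 and Adra1b each have a second RefSeq start inside the gene, not printed here, whose window holds 1 GC box, at 60.8% and 72.8% GC. Of all 32851 RefSeq windows of 250 bases, 32.7% hold a GC box and 17.8% hold TGACG. The GC content of the full window of the stretches shown was 71.2% for Drd5, 64.0% for Drd1, 74.0% for Adrb1 and 41.6% for Adra1b, beside a median of 52.4%. These matches describe letters and no measured binding. Of the 10 genes, 8 have an entry in this table.

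Drd1, the main D1-class receptor of the cortex, gave 1917 UMIs, of which 81.9% lay in excitatory neurons, beside 50.5% of the UMIs of all genes. Its level was highest in L6 IT neurons, the deep-layer cells that project within the telencephalon, at 35.8 in the lowest library, 53.6 in the median and 70.2 in the highest (52.8 ± 12.1 CPM, SD, n = 10). L6 CT neurons, which project to the thalamus, followed at 45.8 ± 14.3 (SD, n = 8) and L5/6 NP neurons at 39.3 ± 13.1 (SD, n = 8). These neighbours in the order did not differ beyond their spread. L5 IT neurons held 20.02 ± 6.71 CPM (SD, n = 10) and L2/3 IT neurons, which form the upper layers, 9.85 ± 5.73 (SD, n = 10).

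L5 PT neurons, the deep-layer cells that project to the brainstem and spinal cord, were nearly without Drd1. They held 8 UMIs in 1039 cells, in 3 of 10 libraries, at 3.61, 1.38 and 3.78 CPM, and the other 7 libraries were at 0. All 10 libraries had less Drd1 in L5 PT than in L5 IT neurons (0.878 against 20.02 CPM, exact sign-flip permutation test, two-sided, adjusted p = 0.0156). All 8 libraries with both groups had less in L5 PT than in L6 CT neurons (adjusted p = 0.0240, same test). The median L5 PT cell held 3543 UMIs, more than the 2688 of an L6 CT cell. L6 CT neurons also exceeded L2/3 IT neurons in 8 of 8 libraries (45.8 against 11.04 CPM, exact permutation test, adjusted p = 0.0240).

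Among interneurons, Drd1 was at 25.5 ± 5.02 CPM (SD, n = 5) in Pvalb cells, the fast-spiking type, and at 22.1 ± 10.6 (SD, n = 4) in Lamp5 cells. It was 15.2 in Sst cells and 8.38 in Vip cells. Excitatory neurons as a whole held 25.7 CPM and inhibitory neurons 17.0, a difference that missed the threshold (exact permutation test, adjusted p = 0.0554). Astrocytes, at 2.66 CPM, were below excitatory neurons in 10 of 10 libraries (exact permutation test, adjusted p = 0.0156). Thinned to 1000 UMIs per cell, a mean over libraries of 5.42% of L6 IT cells and 5.01% of L6 CT cells had a Drd1 UMI, against 0.0974% of L5 PT cells. With at least 10 cells per group, L5/6 NP neurons held 43.1 and Pvalb cells 17.8 CPM, with L5/6 NP higher in 8 of 9 libraries, a pair picked from the order of these levels, so its test is not used as support. Microglia, taken as cells that lack the gene, gave 0.736% at a median depth of 1273.5 UMIs, so the L5 PT share is no higher than that background. The unthinned shares of L6 IT, L6 CT, L5 PT and microglia were 22.7%, 17.8%, 0.330% and 0.646% as means over libraries, and 17.8%, 12.7%, 0.770% and 0.830% pooled.

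**Figure D1:**
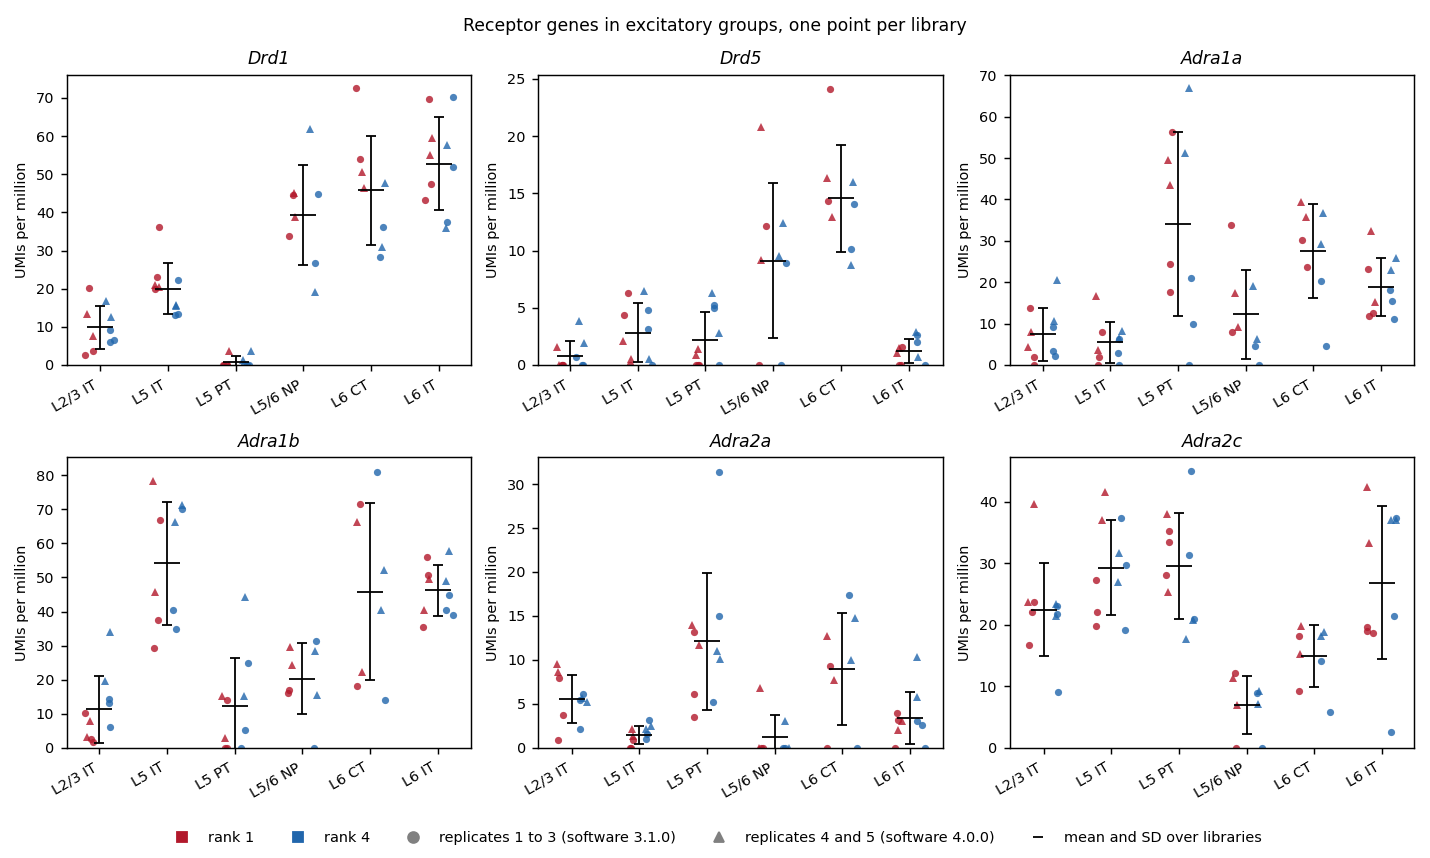
Levels of 6 receptors in the 6 excitatory groups, in CPM, 1 point per library with the mean and SD. Drd1 in L5 PT lies at or near 0 in all libraries and Drd5 is highest in L6 CT.

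Drd5, the other D1-class receptor, had 374 UMIs in all and 170 of them in L6 CT neurons. The level there was 8.76 in the lowest library, 14.2 in the median and 24.2 in the highest (14.6 ± 4.68 CPM, SD, n = 8). L6 CT neurons exceeded L2/3 IT neurons in 8 of 8 libraries (14.6 against 0.996 CPM, exact permutation test, adjusted p = 0.0240). They also exceeded L5 PT neurons in 8 of 8 libraries (14.6 against 2.70 CPM, exact permutation test, adjusted p = 0.0240). L6 IT neurons, where Drd1 was highest, held 1.23 ± 1.07 CPM (SD, n = 10). L5/6 NP neurons, at 9.11 ± 6.79 (SD, n = 8), did not differ from L6 CT neurons beyond their spread. Thinned to 1000 UMIs, a mean over libraries of 1.297% of L6 CT cells had a Drd5 UMI, against 0.0552% of microglia. Unthinned, the means over libraries were 5.99% and 0.0755%, and the pooled shares 4.09% and 0.138%.

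Outside neurons, Drd5 was found in oligodendrocyte precursors, the dividing cells of the oligodendrocyte line, in 9 of 10 libraries. The level was 0 in the lowest library, 5.70 in the median and 14.6 in the highest (7.11 ± 5.14 CPM, SD, n = 10). It exceeded that of oligodendrocytes, 0.661 CPM, in 9 of 10 libraries (exact permutation test, adjusted p = 0.0223). With at least 50 cells per group fewer libraries were left and that p was 0.0679. The precursors were higher in every library left, so the exact p was the smallest possible for their number, and nothing is read from the loss. Astrocytes were below excitatory neurons (0.383 against 3.86 CPM, exact permutation test, adjusted p = 0.0223).

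Among L6 CT cells with at least 1000 UMIs in all and a Drd5 UMI, 25.2% of 159 also had a Drd1 UMI, against 12.8% of the other cells. Their median depth was 4426 against 2756 UMIs, and the part of depth in this was not tested. Of the 6 combinations of receptors and cell groups counted this way, this one and Drd1 with Drd2 in L6 IT neurons, described below, had the largest gaps. In L6 IT neurons 24.5% of cells with an Adrb1 UMI had Drd1, against 15.5% of the others (median depths 4106 and 3120 UMIs). In astrocytes 7.47% of cells with Adra1b had Adra1a, against 5.13% (2414.5 and 1635 UMIs). The gap was small in L5 IT neurons, where 13.8% of cells with Adrb1 had Adra2c, against 11.4% (3954 and 2979 UMIs). It had the other sign in Vip interneurons, where 9.46% of cells with Adra1b had Adra1a, against 10.05% (2624 and 2051 UMIs). Cells with the second receptor were deeper in all 6, and no difference in co-detection was tested.

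Drd2, the D2-class receptor that lowers cyclic AMP, was sparse, at 184 UMIs. L6 IT neurons held 76 of them, at 2.04 CPM in the lowest library, 8.58 in the median and 22.1 in the highest (9.80 ± 6.47, SD, n = 10). Sst interneurons followed at 6.42 ± 5.79 (SD, n = 8), which did not differ from L6 IT neurons beyond the spread. L6 CT neurons gave 1 Drd2 UMI in 3887 cells, a pooled level of 0.0758 CPM (Poisson 95% interval 0.00192 to 0.422). At a depth thinned to 1000 UMIs, 0.958% of L6 IT cells had a Drd2 UMI, against 0.00681% of microglia (4.71% and 0.134% unthinned, or 3.05% and 0.0830% pooled). Astrocytes were below excitatory neurons in every library (0.287 against 2.87 CPM, exact permutation test, adjusted p = 0.0156). In the 3 clusters named L6 IT, the pooled level was 7.57, 4.51 and 12.9 CPM, and the last of these is led by immediate early genes. By rank, L6 IT neurons had a mean of 12.7 CPM in rank 1 and 6.93 in rank 4, with no test because the gene fell under the count filter there. Rank 4 replicate 3 was at 18.2 CPM, and without it the rank 4 mean was 4.11 ± 1.73 (SD, n = 4). Rank 1 replicate 2 was at 22.1 CPM, and without it the rank 1 mean was 10.3 ± 2.25 (SD, n = 4). Of 66 L6 IT cells with at least 1000 UMIs in all and a Drd2 UMI, 40.9% also had Drd1 (exact binomial 95% interval 29.0 to 53.7%), against 17.3% of the others. The median depth was 4961.5 against 3324 UMIs.

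Drd4, the other D2-class receptor, had 55 UMIs. In L2/3 IT neurons it was seen in 9 of 10 libraries, at 2.18 ± 2.61 CPM (SD, n = 10), and in L6 CT neurons at 0.0891. The highest library, rank 4 replicate 3, was at 9.12 CPM from 3 UMIs, and without it the L2/3 IT mean was 1.41 ± 0.974 (SD, n = 9). L6 CT neurons were below L2/3 IT neurons in 8 of 8 libraries (0.0891 against 2.45 CPM, exact permutation test, adjusted p = 0.0240). Without that library L2/3 IT neurons were at 1.498 CPM in the remaining 7, and the call held (adjusted p = 0.0446, exact permutation test). Astrocytes were below excitatory neurons in 10 of 10 libraries (0.0712 against 0.809 CPM, exact permutation test, adjusted p = 0.0156). In Vip interneurons the mean of 6.26 ± 10.8 (SD, n = 6) rested on 2 libraries, at 11.3 and 26.2 CPM, both of rank 1, with 2 UMIs each.

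**Figure D2:**
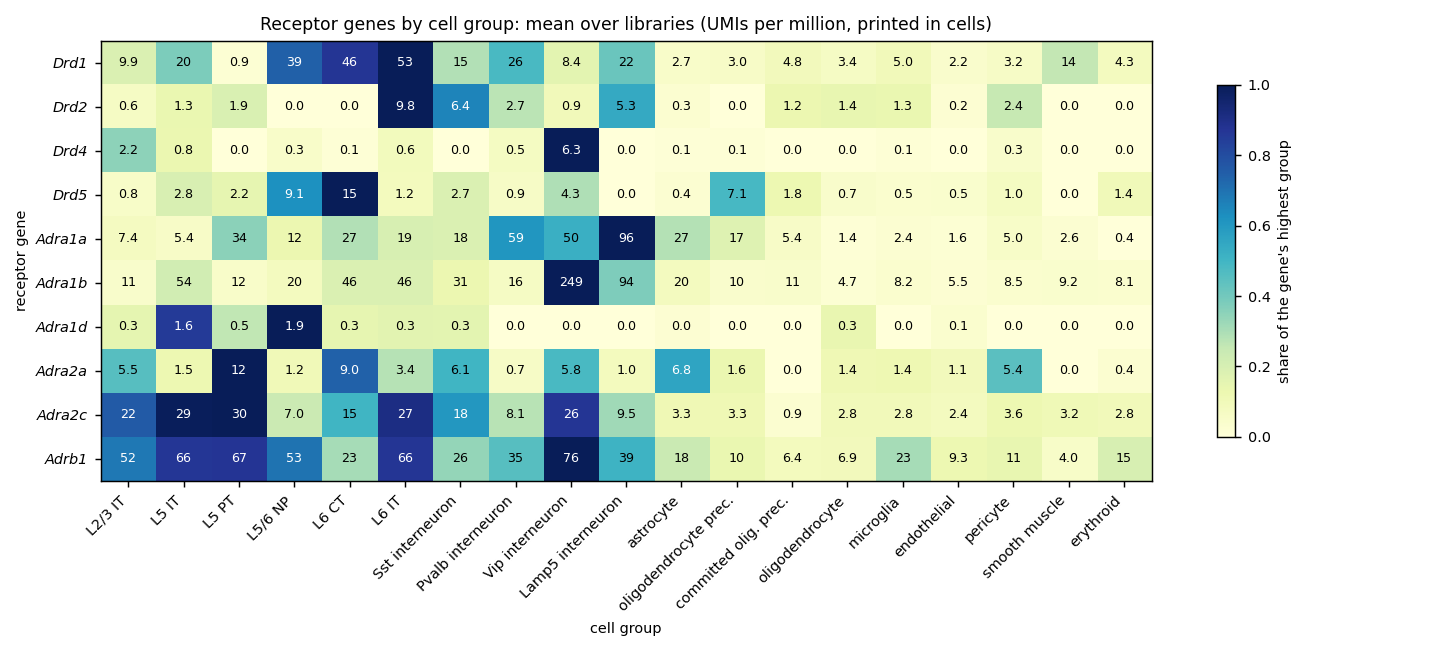
Mean level of each receptor in each cell group, scaled to the highest group of its own row, so rows cannot be compared with each other. Drd1 and Drd2 peak in L6 IT, Drd5 in L6 CT, and Adra1b in Vip interneurons.

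Adra1b, a Gq-coupled receptor, had its highest level in Vip interneurons, with 3546 UMIs in all cells. In Vip interneurons, which mostly inhibit other interneurons, its rank 1 libraries held 340, 210 and 173 CPM and its rank 4 libraries 304, 260 and 206 (249 ± 64.1 CPM, SD, n = 6). Lamp5 interneurons held 94.1 ± 30.04 (SD, n = 4), and the 1 library with enough Sncg interneurons held 137. Sst cells were at 31.3 and Pvalb cells at 15.97. With at least 10 cells per group, a choice made after seeing the data, Vip cells held 257 and Lamp5 cells 90.7 CPM, with Vip higher in 9 of 9 libraries, a pair picked for its place in the order, so its test is not used as support. Under that choice Sst cells exceeded Pvalb cells in 9 of 9 libraries (32.4 against 16.8 CPM, exact permutation test, adjusted p = 0.0211). Of Vip cells thinned to 1000 UMIs, 21.3% had an Adra1b UMI, against 0.769% of microglia (39.7% and 1.26% unthinned, median depths 2048 and 1273.5 UMIs).

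Inhibitory neurons as a whole held more Adra1b than excitatory neurons in 9 of 10 libraries (81.9 against 34.0 CPM, exact permutation test, adjusted p = 0.0223). The excitatory minus inhibitory difference was -70.3 CPM in the 6 libraries of version 3.1.0 (-102 to -22.7) and -14.1 in the 4 of version 4.0.0 (-26.1 to 2.69). Among excitatory groups, L5 IT, L6 IT and L6 CT neurons held 54.1 ± 18.1 (SD, n = 10), 46.3 ± 7.50 (SD, n = 10) and 45.8 ± 26.0 CPM (SD, n = 8). L5 PT neurons, at 12.2 ± 14.1, were below L5 IT neurons in 10 of 10 libraries (exact permutation test, adjusted p = 0.0156). They were below L6 CT neurons in 8 of 8 libraries (15.2 against 45.8 CPM, exact permutation test, adjusted p = 0.0240). L6 CT neurons exceeded L2/3 IT neurons in 8 of 8 libraries (45.8 against 12.2 CPM, exact permutation test, adjusted p = 0.0240). Astrocytes, at 19.97 CPM, passed as lower than excitatory neurons (adjusted p = 0.0289, exact permutation test), but that call was lost in 8 of 15 other settings.

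Adra1a, the other frequent Gq-coupled receptor, had a different order. Lamp5 interneurons were highest, at 112, 38.6, 116 and 119 CPM (96.3 ± 38.6, SD, n = 4). Pvalb cells held 58.5 ± 13.3 (SD, n = 5) and Vip cells 50.3 ± 24.7 (SD, n = 6), while Sst cells held 17.9. With at least 10 cells per group, chosen after seeing the data, Pvalb exceeded Sst cells in 9 of 9 libraries (42.1 against 15.9 CPM, exact permutation test, adjusted p = 0.0211). Under that choice Lamp5 cells held 88.5 and Pvalb cells 45.5 CPM, with Lamp5 higher in 7 of 8 libraries, again neighbours in the order, whose test is not used as support. Thinned to 1000 UMIs, 9.26% of Lamp5 cells had an Adra1a UMI, against 0.221% of microglia (26.0% and 0.281% unthinned).

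Where Drd1 and Adra1b were lower in L5 PT than in L5 IT neurons, Adra1a was higher. The L5 PT level was 0 in the lowest library, 33.9 in the median and 66.8 in the highest, against 5.44 ± 5.01 (SD, n = 10) in L5 IT neurons. L5 PT was higher in 9 of 10 libraries (34.0 against 5.44 CPM, exact permutation test, adjusted p = 0.0223), though not with at least 50 cells per group (adjusted p = 0.0679, exact permutation test). L6 CT neurons exceeded L2/3 IT neurons (27.5 against 8.71 CPM, exact permutation test, adjusted p = 0.0431), but that call was lost in 9 of 15 other settings. Inhibitory neurons exceeded excitatory neurons in 9 of 10 libraries (33.0 against 14.6 CPM, exact permutation test, adjusted p = 0.0240).

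Glia also held Adra1a. Summed markers of excitatory neurons, which free RNA can carry into other cells, were at 507 CPM in astrocytes (74.9 to 1299) and 517 in oligodendrocyte precursors (54.9 to 1250) against 2595 in excitatory neurons. Their part in the glial levels was not tested. Astrocytes, at 27.2 ± 7.62 CPM (SD, n = 10), were above excitatory neurons, at 14.6, in 10 of 10 libraries (exact permutation test, adjusted p = 0.0156). Oligodendrocyte precursors were at 16.6 ± 7.78 (SD, n = 10) against 1.36 in oligodendrocytes, higher in 10 of 10 libraries (exact permutation test, adjusted p = 0.0156). At 50 cells per group fewer libraries were left and that p was 0.0679. Precursors were higher in every library left, so the exact p was the smallest possible for their number, and nothing is read from the loss. Adra1d had 61 UMIs, of which 93.4% lay in excitatory neurons (50.5% of the UMIs of all genes), with means of 1.91 CPM in L5/6 NP (n = 8) and 1.63 CPM in L5 IT neurons (n = 10). In the 8 libraries with both groups L5 IT held 2.03 and L5/6 NP 1.91 CPM, and without rank 4 replicate 5 the L5/6 NP mean was 0.821.

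**Figure D3:**
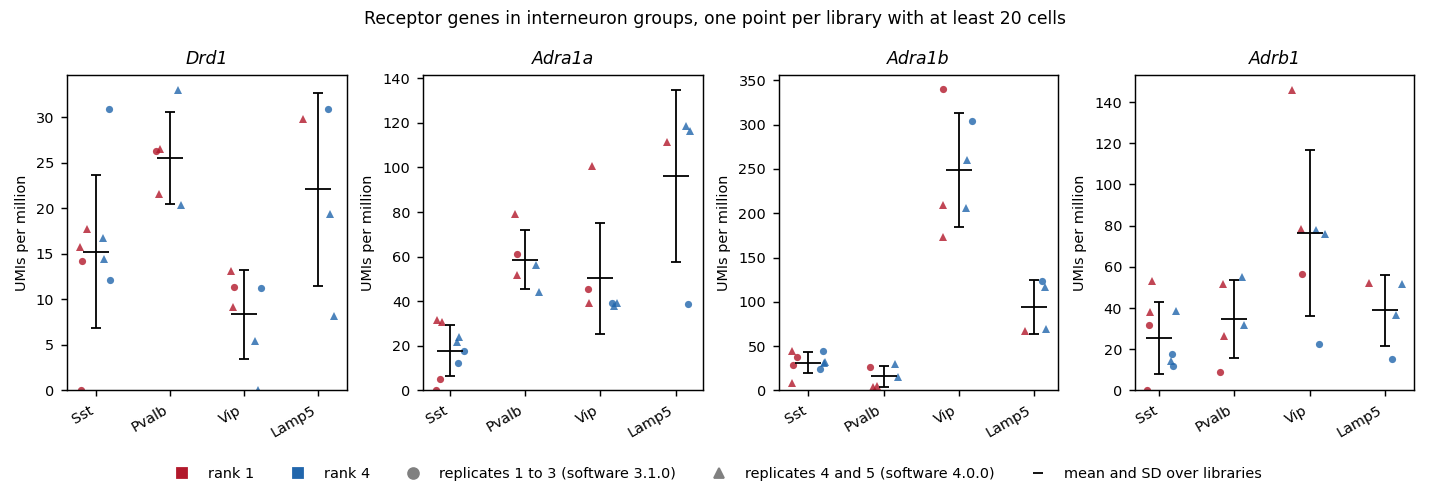
Levels of the receptors in the interneuron types, in CPM, 1 point per library with the mean and SD, for 4 receptors and the libraries with at least 20 cells of the type. Adra1b is highest in Vip cells, with all 6 libraries between 173 and 340.

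Adra2a, a Gi-coupled receptor, was low, at 533 UMIs. L5 PT neurons held it in 10 of 10 libraries, at 3.52 in the lowest, 11.4 in the median and 31.4 in the highest (12.1 ± 7.80 CPM, SD, n = 10). They exceeded L5 IT neurons in 10 of 10 libraries (12.1 against 1.49 CPM, exact permutation test, adjusted p = 0.0156). L6 CT neurons held 8.98 CPM and did not differ from L5 PT neurons beyond the spread. Astrocytes held 6.80 ± 5.02 (SD, n = 10). Thinned to 1000 UMIs, a mean over libraries of 0.973% of L5 PT cells had a UMI, against 0.161% of oligodendrocytes (median depths 3543 and 1286 UMIs). Unthinned, the means over libraries were 5.56% and 0.267%, and the pooled shares 4.62% and 0.303%.

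Adra2c, the other Gi-coupled alpha-2 receptor, gave 1661 UMIs and was spread over most excitatory groups. L5 PT neurons held 29.6 ± 8.64 (SD, n = 10), L5 IT neurons 29.2 ± 7.72 (SD, n = 10), and L2/3 IT neurons 22.5 CPM. L5 PT and L5 IT neurons did not differ beyond the spread (exact permutation test, adjusted p = 0.972). Excitatory neurons exceeded inhibitory neurons in 9 of 10 libraries (23.3 against 14.6 CPM, exact permutation test, adjusted p = 0.0240), but this was lost under the stricter cell filter (adjusted p = 0.141, exact permutation test). L5 PT exceeded L6 CT neurons (29.9 against 14.9 CPM, exact permutation test, adjusted p = 0.0431), but that call was lost in 9 of 14 other settings. In cells thinned to 1000 UMIs, 2.78% of L5 PT cells had a UMI, against 0.246% of microglia (13.8% and 0.428% unthinned, or 10.97% and 0.692% pooled). Astrocytes, at 3.28 CPM, were lower than excitatory neurons in 10 of 10 libraries (exact permutation test, adjusted p = 0.0156).

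Adrb1, the Gs-coupled receptor, was the most counted member, at 4666 UMIs. Vip interneurons held 22.5 in the lowest library, 77.0 in the median and 146 in the highest (76.3 ± 40.4 CPM, SD, n = 6). L5 PT, L6 IT and L5 IT neurons held 66.7 ± 34.1, 66.2 ± 33.6 and 66.0 ± 43.2 CPM (SD, n = 10 each). In the 6 libraries with both groups, L5 PT neurons held 87.5 CPM and Vip interneurons 76.3, with L5 PT higher in 5 of 6. L6 CT neurons, at 23.4 CPM, were below L2/3 IT neurons in 8 of 8 libraries (59.4 CPM in those libraries, exact permutation test, adjusted p = 0.0240). At 10 cells per group, chosen after seeing the data, that p was 0.279. L5 PT exceeded L6 CT neurons in 8 of 8 libraries (74.1 against 23.4 CPM, exact permutation test, adjusted p = 0.0240), and at 10 cells that p was 0.128. Excitatory exceeded inhibitory neurons in 9 of 10 libraries (50.3 against 32.8 CPM, exact permutation test, adjusted p = 0.0240), but not under the stricter cell filter (adjusted p = 0.0835, exact permutation test). Astrocytes, at 18.3 CPM, were below excitatory neurons in 10 of 10 libraries (exact permutation test, adjusted p = 0.0156). Thinned to 1000 UMIs, 6.75% of Vip cells and 2.42% of microglia had a UMI (14.8% and 2.80% unthinned), so microglia here are not free of Adrb1 UMIs. Microglia were at 23.3 ± 23.1 CPM (SD, n = 10), beside 750 CPM of summed excitatory markers (96.2 to 1959), whose part in it was not tested.

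Adrb1 levels moved with software version. Over the 19 cell groups with at least 2 libraries of each version, the mean was higher in version 4.0.0 in 19, and the libraries of the versions did not overlap in 14. These groups are nested, since excitatory and inhibitory neurons include their own subtypes. The same count was not made over all genes, so nothing particular to Adrb1 is read from it. They overlapped in Sst interneurons (0 to 32.0 CPM in version 3.1.0 and 14.4 to 53.0 in version 4.0.0), oligodendrocyte precursors, committed precursors, oligodendrocytes and smooth muscle. In excitatory neurons the libraries of version 3.1.0 held a mean of 27.8 CPM (20.4 to 36.3), and those of version 4.0.0 held 83.9 (72.5 to 90.3). The means were 10.7 and 29.7 in astrocytes, and 7.48 and 47.1 in microglia, with no overlap. Adra1a in inhibitory neurons differed the same way, at 21.2 and 50.7. In excitatory neurons Adra1a was at 8.76 (3.71 to 18.5) and 23.4 (18.2 to 29.2), where the sets overlap through rank 1 replicate 1, at 18.5, and rank 1 replicate 4, at 18.2. Adra2a in astrocytes was at 3.14 and 12.3 CPM, and Adra1d in excitatory neurons at 0.0694 and 1.46. Adra1b in Vip cells was the other way round, at 322 CPM in 2 libraries of version 3.1.0 and 212 in 4 of version 4.0.0. Version coincides with replicate numbers 1 to 3 against 4 and 5, so it cannot be told apart from other differences between these libraries. The cause was not tested. Both ranks hold 3 libraries of version 3.1.0 and 2 of version 4.0.0. All 29 called cell-group differences had the same sign within each version and within each rank. In size, 5 of them were over 1.5 times larger in version 3.1.0 and 9 in version 4.0.0. Among these was Adrb1 in excitatory against inhibitory neurons, with mean differences of 6.37 CPM in version 3.1.0 and 34.2 in version 4.0.0.

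**Figure D4:**
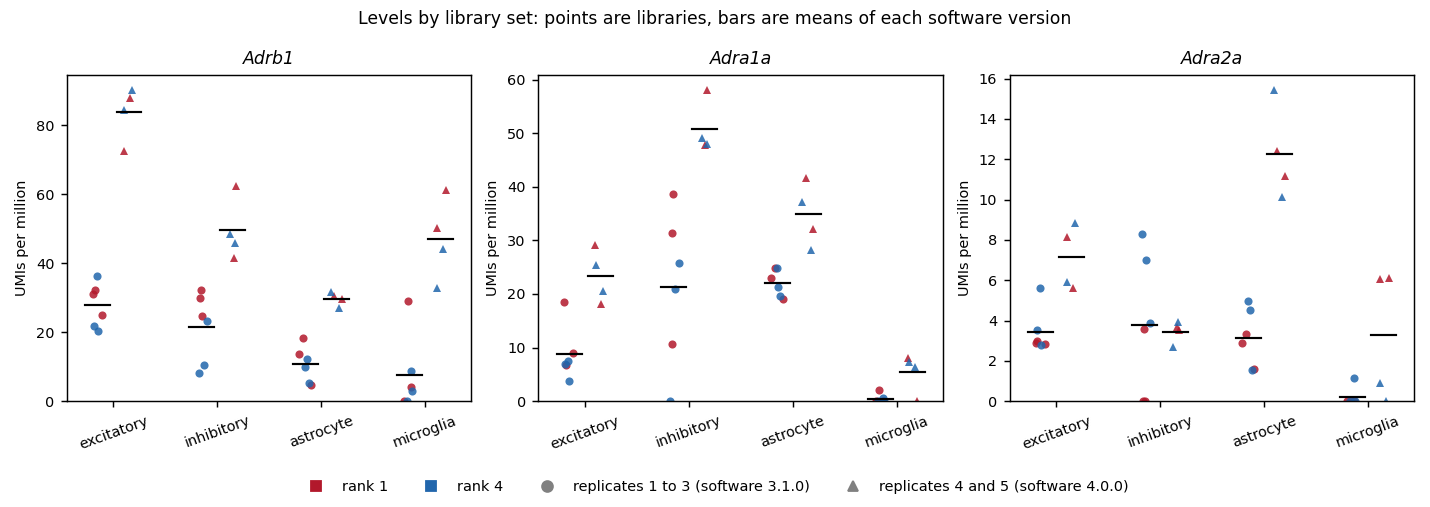
Levels of Adrb1, Adra1a and Adra2a by library, split by the software version named in the matrix header, in CPM. Adrb1 in excitatory neurons lies between 20.4 and 36.3 in replicates 1 to 3 and between 72.5 and 90.3 in replicates 4 and 5.

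In all, 97 pairs of cell groups were drawn up, 80 could be tested, and 29 passed. Of these pairs 7 per receptor were the same for all receptors, and the others are neighbours in the order of the receptor's own levels, so a test of a neighbour pair is not independent of its choice. None of the 23 tested neighbour pairs passed with at least 20 cells per group. With at least 10 cells, chosen after seeing the data, 3 neighbour pairs that could not be tested at 20 cells, with under 6 libraries, passed in the exact permutation test: Drd1 in L5/6 NP against Pvalb cells (adjusted p = 0.0271), Adra1a in Lamp5 against Pvalb cells (adjusted p = 0.0489) and Adra1b in Vip against Lamp5 cells (adjusted p = 0.0211).

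Differences between cell groups were frequent among all genes too. Each gene with at least 10 UMIs in the libraries of a pair was put through the same exact sign-flip test, with the largest unadjusted p of the 29 called differences, 0.0156, as the limit, a choice made after seeing the data. Over all genes and the 6 pairs of groups with such a test, 34.3% of 92439 tests passed that limit, against 29 of 53 (54.7%) for the receptors. The all-gene share was 62.0% in astrocytes against excitatory neurons, where 8 of 10 receptors passed, and 43.1% in oligodendrocyte precursors against oligodendrocytes, where 2 of 7 did. It was 31.8% in excitatory against inhibitory neurons (4 of 10 receptors), 24.3% in L6 CT against L2/3 IT (6 of 9), 20.8% in L5 PT against L5 IT (4 of 9) and 19.5% in L5 PT against L6 CT neurons (5 of 8). Other genes, unlike the receptors, took part in the clustering that made the groups, and the receptors were chosen with their levels known, so nothing particular to the receptors is read from these shares.

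The genes whose means followed a receptor most closely over 22 cell groups were found by Pearson correlation of log2 levels. They share libraries and depth, so r is a description. Drd1 was followed most closely by Kcnh1 (r = 0.863), a potassium channel gene. Drd5 was followed by Rprm (r = 0.895) and Drd2 by Htr2a (r = 0.750), the serotonin 2A receptor gene. Kcnh1 was highest in L5 IT neurons and Htr2a in Pvalb interneurons, while Rprm, like Drd5, was highest in L6 CT neurons. Rprm was also a marker used to name the L6 CT clusters, so its likeness to Drd5 is not independent of the naming. Adra1b was followed by Mir670hg (r = 0.889) and then Cnr1 (r = 0.867), a cannabinoid receptor gene. Both were highest in Sncg interneurons, for which Cnr1 was a naming marker. Adra2c was followed by Cacna1b (r = 0.896) and Adrb1 by Gpr22 (r = 0.914). Among the receptors themselves, Adra2c and Adrb1 were most alike (r = 0.803).

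Rank 1 and rank 4 were compared within 17 cell groups by edgeR's quasi-likelihood test, which was run with software version as a covariate. Of 118832 tests over all genes, 16 passed (0.0135%), and all 16 lay in Vip interneurons (0.502% of that group's tests, against 0% in the other 16 groups). The receptors were tested 42 times in 11 groups, and none was called by DESeq2 or by edgeR as fitted here, with the low-count filter and no replicate block. Of the 42, 3 had an unadjusted p under 0.05 in edgeR, beside 3.29% of all tests. The median log2 difference of the 42 (rank 1 minus rank 4) was 0.094, with 29 above 0 and 13 below. Without rank 1 replicate 1 the median was 0.001 (22 above and 21 below), without rank 4 replicate 3 it was 0 (21 and 21), without rank 4 replicate 5 it was 0.037, and without rank 1 replicate 4 it was 0.144, so no direction is read from it. For comparison, the median of all genes in the fit with all libraries lay between -0.021 and 0.011 in the groups.

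Adra1b in L2/3 IT neurons had the smallest p of the receptors. Rank 1 libraries held 10.1, 1.85, 2.64, 3.22 and 7.91 CPM, from 11, 1, 1, 3 and 10 UMIs. Rank 4 libraries held 14.2, 13.1, 6.08, 19.5 and 33.9 CPM, from 21, 6, 2, 31 and 71 UMIs. Rank 1 was lower in 5 of 5 replicate numbers, and the groups overlap. The log2 difference was -1.63 (SE 0.40, unadjusted p = 0.000879, adjusted p = 0.9997, edgeR quasi-likelihood test). Blocking on the replicate number gave -1.67 (SE 0.33) and an adjusted p of 0.00563 in edgeR, in a group where 0.64% of genes then passed. Without a filter on low counts the difference was -1.65 (adjusted p = 0.00565 in edgeR, 0.122% of 18892 genes called). The DESeq2 difference was -1.60 (adjusted p = 0.9995).

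The L2/3 IT cells of the 2 ranks differed in depth. Their median UMIs per cell ran from 1780 to 5174.5 in rank 1 and from 1031 to 2616 in rank 4. They came from 2 clusters, and the larger one held 26.2 to 74.4% of the cells in rank 1 and 43.9 to 79.2% in rank 4, a share that was higher in rank 4 in 5 of 5 replicate numbers, as Adra1b was. In that cluster the Adra1b level had a median of 5.67 CPM (0 to 19.2) in rank 1 and of 22.1 (0 to 42.4) in rank 4, and in the other 3.22 (0 to 11.01) and 13.6 (0 to 20.8). In the larger cluster Adra1b was higher in rank 4 in 3 of 5 replicate numbers, lower in number 1 (14.7 against 19.2 CPM) and at 0 in both ranks in number 3. In the other it was higher in rank 4 in 4 of 5 numbers and at 0 in both ranks in number 2. Median depth was lower in rank 4 in 4 of 5 numbers. Summed markers of Vip interneurons, the group with the highest Adra1b, ran from 9.65 to 109 CPM in rank 1 and from 2.18 to 130 in rank 4, and were higher in rank 4 in 4 of 5 numbers. Summed L5 IT markers ran from 46.3 to 99.7 and from 39.2 to 126, higher in rank 4 in 2 of 5. Summed Lamp5 markers had medians of 136 (102 to 164) and 143 (119.9 to 152), higher in rank 4 in 3 of 5 numbers. Summed L5 PT markers had medians of 60.7 (49.5 to 76.0) and 48.0 (35.1 to 81.2), higher in rank 4 in 1 of 5. The group's own L2/3 IT markers had medians of 928 (552 to 1063) and 854 (518 to 1114), higher in rank 4 in 2 of 5. Summed inhibitory neuron markers had a median of 20.4 CPM in rank 1 (15.01 to 69.7) and 47.8 in rank 4 (6.54 to 96.6), higher in rank 4 in 4 of 5 replicate numbers. Summed L6 IT markers had medians of 26.8 (7.41 to 62.3) and 34.5 (13.1 to 86.5), also higher in rank 4 in 4 of 5 numbers. Summed astrocyte markers had medians of 323 (193 to 717) and 569 (229 to 672), higher in rank 4 in 3 of 5 numbers. The part of depth, of the cluster shares and of these cells in the difference was not tested. In microglia Adra1b was at 8.09 and 8.35 CPM.

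Drd1 in L5 IT neurons was at 36.1, 23.1, 19.8, 20.5 and 21.0 CPM in rank 1 and at 13.4, 12.97, 22.2, 15.4 and 15.8 in rank 4. The log2 difference was 0.67 (unadjusted p = 0.0111, adjusted p = 1.0, edgeR), and the groups overlap through rank 4 replicate 3. In L6 CT neurons rank 1 held 54.0, 72.5, 50.6 and 46.5 and rank 4 held 36.2, 28.2, 47.6 and 31.0, a log2 difference of 0.45 (unadjusted p = 0.041, edgeR). Rank 1 was higher in 4 of 5 and 4 of 4 numbers. Drd2 was tested in excitatory neurons alone (log2 difference 0.84, SE 0.48) and Drd5 in 2 groups. Drd1 was tested in 6 groups, with log2 differences from 0.05 to 0.67, and none was called. The Adrb1 differences, 0.79 in Vip interneurons and 0.98 in microglia, were not called, and in microglia they rest on libraries at 0 to 61.2 CPM. By receptor, Adra1a was higher in rank 1 in 6 of 6 tests and Adra2a in 0 of 2, and the groups are nested, so these tests are not independent.

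**Figure D5:**
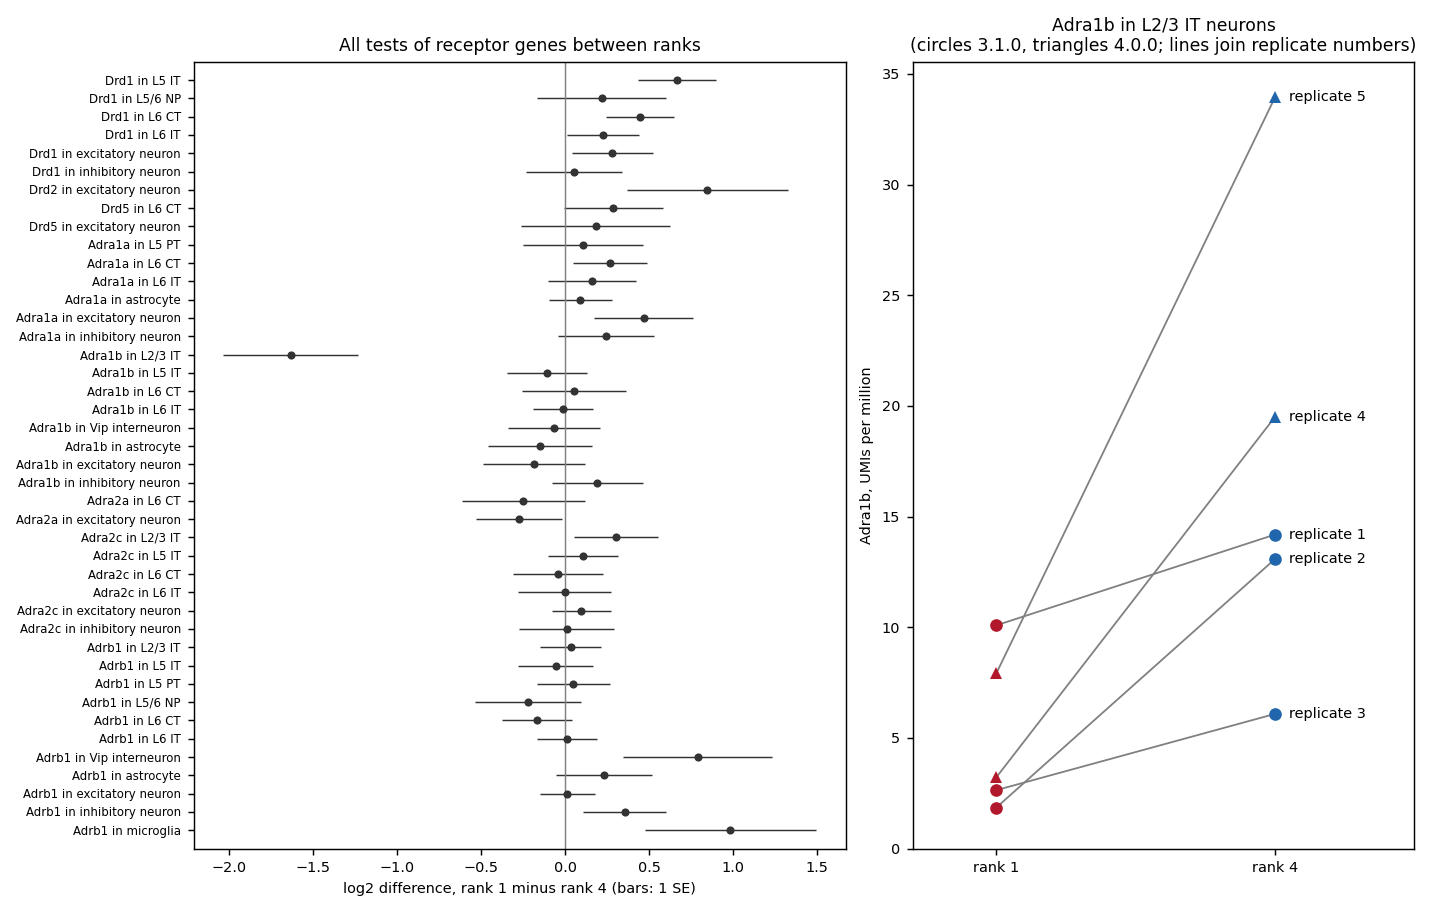
Log2 difference of each tested receptor between rank 1 and rank 4, with its standard error, by cell group (left), and Adra1b in L2/3 IT neurons by library with lines joining replicate numbers (right). The fit shown has software version as covariate and no replicate block, so it does not use the joining lines. No point was called in it at an adjusted p under 0.05, and the difference of largest size is Adra1b in L2/3 IT, which was called with the block (adjusted p = 0.00563, edgeR).

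The other genes of catecholamine synthesis, transport, breakdown and signalling gave 525 tests of 45 genes, and none passed in edgeR or DESeq2. Of the 525, 14 had an unadjusted p under 0.05 in edgeR, beside 3.29% of the tests over all genes, so nothing is read from this count. The smallest p values were of Rgs4, a regulator that shortens G protein signalling, at -0.55 in L2/3 IT (SE 0.15, unadjusted p = 0.00249, edgeR quasi-likelihood test), -0.94 in Sst and -0.55 in L5 IT neurons. Blocking on the replicate number made 7 of the 525 pass: Rgs4 in excitatory neurons (-0.48), astrocytes (-0.78), endothelial cells (-0.88), L2/3 IT (-0.57), L5 IT (-0.59) and L6 IT neurons (-0.60), and Prkar1b in endothelial cells (-0.83). The share of all genes called in those block fits was 0.527% in excitatory neurons, 0.441% in astrocytes, 0.378% in endothelial cells, 0.64% in L2/3 IT, 0.528% in L5 IT and 0.376% in L6 IT neurons, and 0.354% over all groups. The IT groups are part of the excitatory neurons, so these calls are not independent. In pericytes, where Rgs4 was highest (1230 CPM), the block difference was -0.06 and was not called. The part of free RNA in the astrocyte and endothelial calls was not tested. For the transmitters themselves, Th, which makes L-DOPA, had 77 UMIs, of which 43 lay in 1 unnamed interneuron cluster, and Dbh, which makes noradrenaline, had 7. Maoa, which breaks down both transmitters, was highest in endothelial cells (229 ± 56.3 CPM, SD, n = 10).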

How the data were processed

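Raw UMI counts per gene and barcode were taken from the 10 deposited matrices. The matrix headers give software version 3.1.0 for 6 libraries and 4.0.0 for 4, while the submitters' processing notes name Cell Ranger 4.0.0 and the mm10 genome. Barcodes with fewer than 500 genes or more than 15% mitochondrial UMIs were left out, and 3915 doublets were removed by Scrublet in scanpy 1.11.5 (for rank 1 replicate 1 the threshold was set to 0.238, the median of the other libraries). Cells were clustered with Leiden (leidenalg 0.10.2) on 2000 variable genes without the receptors and named from marker lists. UMIs were summed per library and cell group. The receptors and gene lists were chosen with earlier results of these data known. All 10 receptors are named with their levels, and for the ranks the 5 receptor and cell-group pairs with the smallest unadjusted p.

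Ranks were compared with edgeR 4.0.16 (quasi-likelihood, TMM, filter on low counts, software version as covariate, Benjamini-Hochberg over all genes of a group). DESeq2 1.42.0 was an alternative. Cell groups were compared by exact sign-flip permutation over at least 6 libraries, two-sided, with p-values adjusted over 80 tested pairs. The scripts were tested on simulated data. Replicate numbers in the labels are shared by the ranks and are not explained there. In excitatory neurons same-numbered libraries deviated together (correlation 0.717 to 0.898 over 11491 genes). This range includes the software version, which same-numbered libraries share: relative to the means of their rank and version the correlations were 0.171 to 0.775, and as low as 0.012 in oligodendrocyte precursors. In 6 of 20 comparisons over 4 cell groups the best match in rank 4 had another number: replicate 2 for replicate 3 in excitatory neurons, 3 for 2 in astrocytes, endothelial cells and oligodendrocyte precursors, and 4 for 5 in astrocytes and oligodendrocyte precursors. The main rank tests did not use the numbers as pairs. Pairing is a hint from the data rather than the labels, so the fit with a replicate block is an alternative, given where it changes a call. Intervals cover counting error only. Gene starts come from GENCODE and RefSeq on GRCm38.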

Additional observations from a re-analysis of the deposited data

Results flagged for a closer look

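In L6 IT neurons of rank 4, Drd2 was at 18.191 CPM in replicate 3, while the other 4 libraries had a median of 4.09 CPM, a gap of 0.74 of the group's range. In L5/6 NP neurons of rank 4, Adra1d was at 9.499 CPM in replicate 5 and at 0 in the other 3 libraries. With the other libraries at 0, any value above 0 would stand apart like this, so nothing is read from the Adra1d gap. Chance marks about 1 in 20 groups of libraries, and 12 were examined. The values rest on 7 UMIs of Drd2 and 4 UMIs of Adra1d.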

How the results depend on the processing

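None of the 29 called cell-group differences changed sign in any alternative run. The calls on Adra1a in L6 CT against L2/3 IT neurons, on Adra1b in astrocytes and on Adra2c in L5 PT against L6 CT neurons were lost in most of them, among them the loss of any of 7 single libraries for each. These were rank 1 replicates 1, 3, 4 and 5 with rank 4 replicates 1, 4 and 5 for Adra1a, rank 1 replicates 1, 4 and 5 with rank 4 replicates 1, 3, 4 and 5 for Adra1b, and rank 1 replicates 1, 3, 4 and 5 with rank 4 replicates 1, 3 and 4 for Adra2c (adjusted p up to 0.0781, 0.0849 and 0.604 over all alternatives, exact permutation test). Between ranks, the receptor calls rose from 0 to 1 (Adra1b in L2/3 IT) with the replicate block and without the filter on low counts, and the replicate block raised the calls on the catecholamine genes from 0 to 7. It changed no other call of a receptor. Adra1b in L2/3 IT ran from -2.21 to -1.35 on the log2 scale when 1 library was left out. It fell under the low-count filter without rank 4 replicates 1, 4 or 5, within replicates 1 to 3 and under the stricter cell filter, so no value exists there. Over all genes, the 16 calls became 421 with the replicate block, 0 without the covariate, 1 with DESeq2, 133 without the low-count filter, 5 with the stricter cell filter, 1 with at least 50 cells, 0 in the libraries of version 3.1.0 and 7 in those of version 4.0.0. Dropping 1 library at a time gave 1 to 21. It was 3, 7, 5, 1 and 8 without rank 1 replicates 1 and 4 and rank 4 replicates 1, 4 and 5, which are among the 6 libraries with enough Vip interneurons. The cause was not tested. Shares of cells with a UMI depend on the depth to which cells were thinned. The depth of the UMI counts limits what can be seen of Drd2, Drd4 and Adra1d.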

Other observations

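Finer clusters inside the named groups, chosen after their values were seen, differed in pooled level and have no test. In L5 IT neurons the clusters held 25.2 and 12.3 CPM of Drd1, and in L6 CT neurons 38.4 and 60.0. An inhibitory cluster of 24 Sst-like cells held 111 CPM of Drd1 and 172 of Adra1b. Of the 77 Th UMIs, 43 fell in an unnamed inhibitory cluster of 184 cells, at 68.7 CPM (Poisson 95% interval 49.7 to 92.5).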
